A study of Homo sapiens with 3 samples.

Results

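The genes described here are 10 chemokines that epithelial cells can make, namely CXCL1, CXCL2, CXCL3, CXCL8, CXCL10, CXCL11, CXCL14, CXCL16, CCL5 and CCL20. They were chosen by symbol, as every probe set that the platform's annotation assigns to exactly 1 of these genes, which gave 23 probe sets for 10 of the 18132 genes with a symbol of their own. RNA came from the human line KYSE180, which derives from a squamous cell carcinoma of the oesophagus, and was read on 3 arrays. The groups, with 1 array each, were cells transfected with an LZRS vector for HOTAIR, a long non-coding RNA (with Polyfect), cells transfected with 100 pmol of a mixture of stealth siRNAs against HOTAIR (with Lipofectamine2000), and cells labelled only as control. RNA was taken 48 h after transfection, and the reagents differ between the arms. For the siRNA sample the title and cell line field name KYSE180 while its source name speaks of a HOTAIR cell line, and the title is followed here.

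Chemokines are small secreted proteins that guide leukocytes through G protein-coupled receptors. CXCL1, CXCL2, CXCL3 and CXCL8 carry the ELR motif and draw neutrophils through CXCR2, and NF-kB is a main driver of their transcription. CXCL10 and CXCL11 are interferon-induced and draw T cells through CXCR3, while CXCL14 is made by normal squamous epithelium without an inflammatory stimulus and is often low in squamous carcinomas.

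Values are log2 signals made by RMA, and a difference of 1 is 2-fold. No group has a replicate, so no test was made and no difference below has a p-value. The spread that could be measured was that between probe sets of a gene, with an SD of 0.36 (log2) between HOTAIR vector and control, 0.39 between HOTAIR siRNA and control and 0.21 between the arms, over 5982 genes. It compares probe sets on the same arrays, so it does not measure variation between arrays, cultures or transfections. A gene is given by its brightest probe set, and it passes the filter where the mean over the arrays is at least 5.28, the median of all probe sets. Lower quartiles of the arrays were 3.58 in HOTAIR vector, 3.62 in HOTAIR siRNA and 3.72 in control cells, and signals near or below these levels have little information on size. The annotation named 0 probe sets for HOTAIR, so the manipulation was not checked here. Of 12 epithelial markers, 9 were measured, namely KRT5, KRT14, CDH1, SFN, PERP, DSP, KRT8, KRT18 and EPCAM. All 9 lay between 9.80 and 13.4 on the 3 arrays. The squamous markers KRT6A, KRT17 and TP63 were on the list but had no value here. The leukocyte marker PTPRC was at 2.71 in HOTAIR vector, 2.59 in HOTAIR siRNA and 2.74 in control cells, and 2 of 11 blood cell markers and 0 of 8 stromal and endothelial markers passed the filter. Fewer producing cells and less RNA per cell cannot be told apart in these bulk RNA samples.

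Of the 10 chemokine genes, CXCL14, CXCL1, CXCL8 and CXCL16 passed the filter and 6 did not. The genes and rules were chosen with earlier results of these data known, so the counts below are description only. CXCL14 passed through its HOTAIR siRNA and control signals, at 7.28 and 6.46, with HOTAIR vector at 3.65. CXCL14 and CXCL1 were at least 2-fold lower in HOTAIR vector cells than in control cells, against 2.05% of the 10917 genes that passed the filter, and none of the 4 was higher, against 15.2%. The same genes were at least 2-fold lower in HOTAIR vector than in HOTAIR siRNA cells, against 1.85% of all genes, and 0 of the 4 were higher, against 1.73%. Between HOTAIR siRNA and control cells 0 of the 4 were 2-fold apart, where 14.9% of all genes were higher and 1.85% lower. The median of the 4 was -0.86 for vector minus control, beside -0.18 for all genes that passed. It was 0.27 for siRNA minus control, beside -0.17, and -1.10 between the arms, beside 0.01. After cyclic loess the medians of all genes were -0.03 for vector minus control and 0.02 for siRNA minus control, so small differences from control have no fixed direction. Without the filter, CXCL10 was at least 2-fold higher than control in both arms, where 10.1% of all 18132 genes were higher in HOTAIR vector and 9.81% in HOTAIR siRNA cells. CCL5 was then at least 2-fold higher in HOTAIR vector than in HOTAIR siRNA cells, against 1.37%. In HOTAIR vector cells 7 of the 10 lay below control, a share near the 66.9% of all 18132 genes that did, and CXCL10, CXCL11 and CCL5 lay above it.

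**Figure D1:**
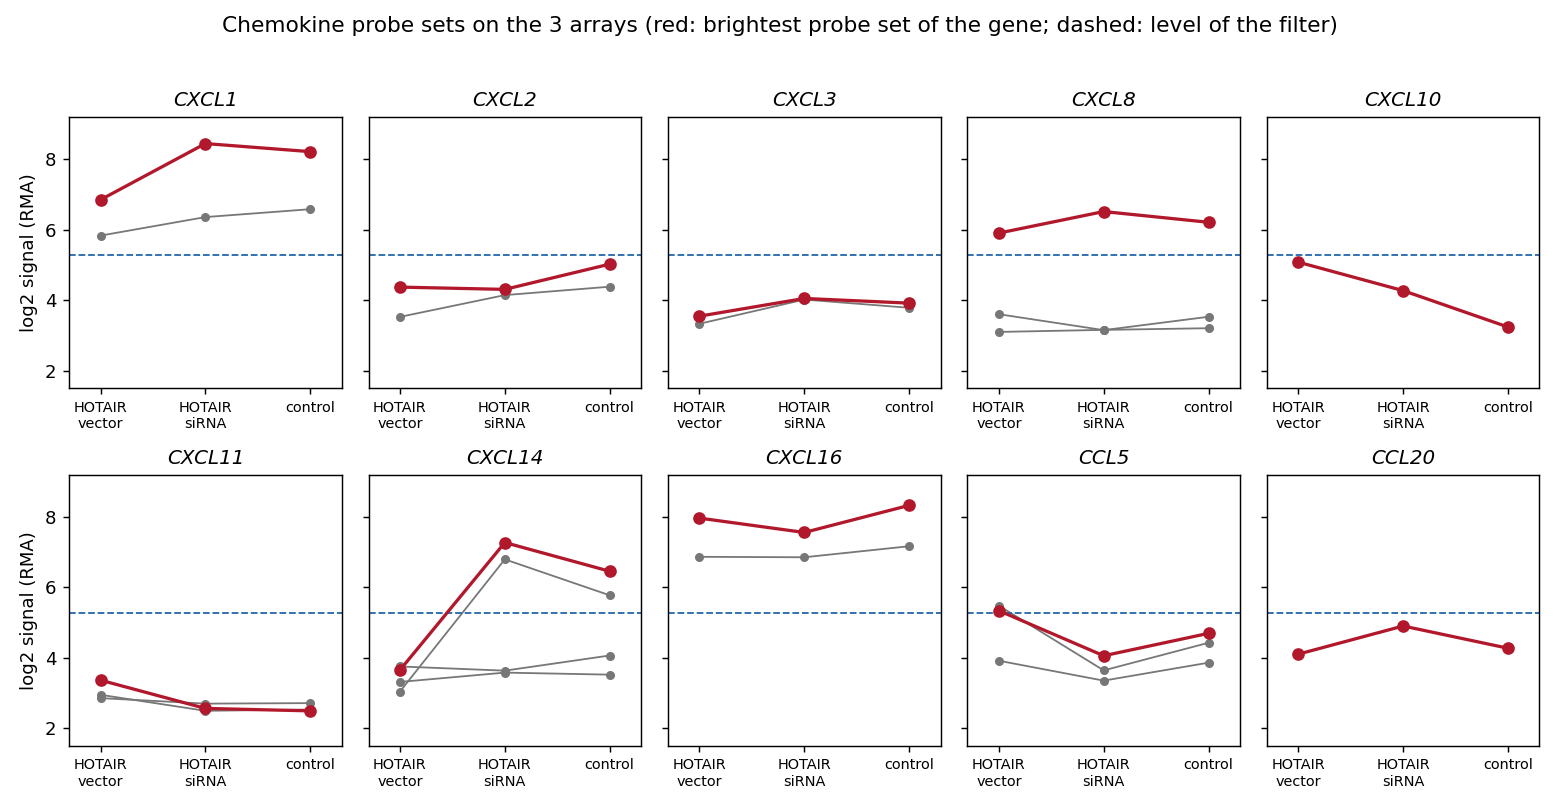
Log2 RMA signal of all 23 probe sets of the 10 chemokine genes (vertical axis) on the HOTAIR vector, HOTAIR siRNA and control arrays (horizontal axis), with a line for each probe set, the brightest of a gene in red, and a dashed line at the filter level of 5.28. CXCL14 drops to 3.65 on the HOTAIR vector array on its brightest probe set while its dimmest pair of probe sets stays between 3.31 and 4.07, and CXCL10 is the gene whose only probe set is highest in HOTAIR vector and lowest in control cells.

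CXCL14 showed the widest range of the 10 genes. Its log2 signal was 3.65 in HOTAIR vector, 7.28 in HOTAIR siRNA and 6.46 in control cells. The difference was therefore -2.81 (log2) for vector minus control and -3.62 for vector minus siRNA, which is 12.3-fold. The HOTAIR vector signal lay at percentile 26.3 of its array, close to the lower quartile, so these folds are uncertain in size. HOTAIR siRNA cells were higher than control by 0.82, short of 2-fold, or by 1.11 after cyclic loess. Among the 10917 genes that passed the filter CXCL14 held rank 6 from the lowest for vector minus control and rank 4 for vector minus siRNA.

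The 4 CXCL14 probe sets fell into 2 kinds. A second one, listed under a RefSeq mRNA, gave 3.04 in HOTAIR vector, 6.80 in HOTAIR siRNA and 5.78 in control cells, or differences of -2.73 for vector minus control and -3.76 for vector minus siRNA. On it HOTAIR siRNA cells were higher than control by 1.02, just past 2-fold. The remaining pair is listed under an expressed sequence tag and was dim on every array. One of them gave 3.75 in HOTAIR vector, 3.63 in HOTAIR siRNA and 4.07 in control cells, and the other 3.31, 3.58 and 3.52 in the same order. Their vector minus control differences were -0.31 and -0.21, within the spread between probe sets. The median of all 18132 genes was -0.22, so the sign of this pair adds little. For vector minus siRNA the pair was at 0.12 and -0.26. Thus 2 of 4 probe sets carry the difference. With the mean over the 4 probe sets, vector minus control was -1.51 and vector minus siRNA -1.88, both past 2-fold, and siRNA minus control was 0.37.

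CXCL14 lies on chromosome 5, apart from the other CXC chemokine genes described here. Its promoter just before the start of transcription is shown because CXCL14 differed most and because it can be set beside the promoters of the inducible genes. These are the 100 bases that end at the start, at chr5:135578992-135579091 on the minus strand of GRCh38.p14 (RefSeq).
CXCL14: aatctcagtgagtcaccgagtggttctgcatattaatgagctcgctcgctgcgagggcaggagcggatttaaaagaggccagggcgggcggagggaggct
The 300-base CXCL14 promoter, from 250 bases before to 50 after the start, held no match to the NF-kB consensus or to the core of the interferon-stimulated response element, which is GAAA, any 2 bases and GAAA. The interferon core was searched on both strands. The NF-kB consensus was GGG, A or G, any 2 bases, 2 that are C or T, and CC. It was searched only along the strand of the gene. Of 35116 promoters of this length, 8.40% held the NF-kB consensus on the strand of the gene and 3.57% held the interferon core. A missing match says only that these letters are not in this window as searched.

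SDK2, DACH1, MRC2, TUBA1A and NID1 were the genes whose differences from control in both arms lay nearest to those of CXCL14, at Euclidean distances of 0.32, 0.35, 0.66, 0.72 and 0.74 (log2) over these 2 differences. SDK2, a cell adhesion gene of the immunoglobulin superfamily, was at 4.27 in HOTAIR vector, 7.44 in HOTAIR siRNA and 6.86 in control cells. With the mean over its probe sets SDK2 was at -1.55 for vector minus control and -1.69 for vector minus siRNA, beside -2.59 and -3.17 on the brightest. For DACH1, which encodes a transcription factor, the signals were 4.45 in HOTAIR vector, 7.61 in HOTAIR siRNA and 6.93 in control cells. On their brightest probe sets all 5 were lowest in HOTAIR vector and highest in HOTAIR siRNA cells, as the distance measure selects for. MRC2, a collagen-binding endocytic receptor gene, was at -2.17 for vector minus control on its brightest probe set but at -0.95 with the mean over 4 probe sets. That mean also turned siRNA minus control for MRC2, at -0.12 beside 0.64 on the brightest, so HOTAIR siRNA was then not the highest array. The tubulin gene TUBA1A stayed at -2.12 with the mean over its probe sets. NID1, which encodes a basement membrane protein, was at -2.08, or -1.25 with that mean. In all, 94 of the 10917 genes (0.861%) were at least 2-fold lower in HOTAIR vector cells than on both other arrays, and CXCL14 and CXCL1 are among them.

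**Figure D2:**
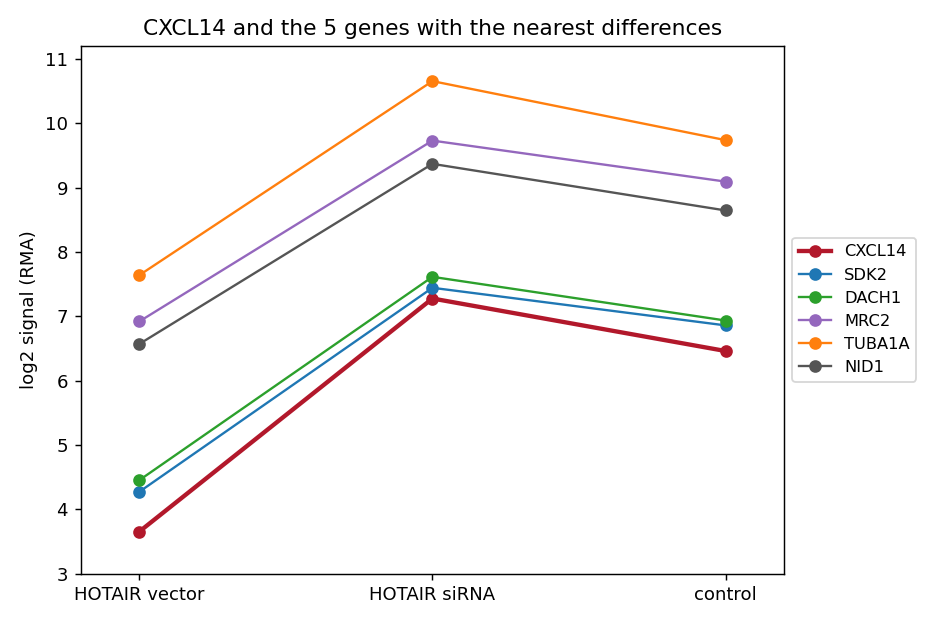
Log2 RMA signal (vertical axis) of CXCL14 (thick red line) and of the 5 genes with the nearest differences from control, on the HOTAIR vector, HOTAIR siRNA and control arrays (horizontal axis). Each line is the brightest probe set of a gene, and all 6 lines are lowest on the HOTAIR vector array, CXCL14 at 3.65 and TUBA1A at 7.64.

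The neutrophil-attracting genes CXCL1, CXCL2, CXCL3 and CXCL8 lie on chromosome 4, and of these CXCL1 differed most. CXCL1 gave 6.85 in HOTAIR vector, 8.45 in HOTAIR siRNA and 8.22 in control cells. Vector minus control was -1.37 (2.58-fold) and vector minus siRNA -1.60 (3.02-fold), with all 3 signals well above the filter. HOTAIR siRNA and control cells were 0.23 apart, less than the spread between probe sets. The other CXCL1 probe set, with signals of 5.83 in HOTAIR vector, 6.36 in HOTAIR siRNA and 6.58 in control cells, also put HOTAIR vector cells lowest. Its differences were smaller, at -0.75 for vector minus control and -0.53 for vector minus siRNA, and did not reach 2-fold. The brightest CXCL1 probe set carries the ending _s_at, so without probe sets of the endings _s_at and _x_at these smaller values stand for the gene. CXCL1 and CXCL2 share a further probe set, assigned to both, at 5.42 in HOTAIR vector, 5.95 in HOTAIR siRNA and 6.02 in control cells, a vector minus control difference of -0.60.

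CXCL2 and CXCL3 were dim on every array. CXCL2 gave 4.37 in HOTAIR vector, 4.31 in HOTAIR siRNA and 5.02 in control cells, so both arms lay below control, at -0.65 and -0.72. On its second probe set the order of the arms was different, with 3.53 in HOTAIR vector, 4.14 in HOTAIR siRNA and 4.38 in control cells. CXCL3 gave 3.55 in HOTAIR vector, 4.05 in HOTAIR siRNA and 3.92 in control cells, with a second probe set at 3.33, 4.02 and 3.78 in the same order. Both CXCL3 probe sets and both CXCL2 probe sets put HOTAIR vector below control, at -0.86 to -0.37. These are paralogues of CXCL1 with similar sequence, and whether probes read more than 1 of them was not tested.

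The promoters of CXCL1, CXCL2 and CXCL3 are shown because these genes are near-copies with similar promoters. Each stretch is the 100 bases that end at the start of transcription, in GRCh38.p14 (RefSeq), at chr4:73869293-73869392 on the plus strand for CXCL1, chr4:74099196-74099295 on the minus strand for CXCL2 and chr4:74038690-74038789 on the minus strand for CXCL3. Capitals mark the match to the NF-kB consensus.
CXCL1: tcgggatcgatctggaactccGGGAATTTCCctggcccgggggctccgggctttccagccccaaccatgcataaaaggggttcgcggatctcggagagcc
CXCL2: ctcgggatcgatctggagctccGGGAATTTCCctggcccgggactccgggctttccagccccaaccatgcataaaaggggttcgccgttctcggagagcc
CXCL3: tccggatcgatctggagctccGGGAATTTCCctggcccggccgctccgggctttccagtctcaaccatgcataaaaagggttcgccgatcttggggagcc
The same 10 letters begin 79 bases before the start in CXCL1 and CXCL3 and 78 bases before it in CXCL2. Over the whole 300 bases the promoters of these 3 genes were 71.3% to 82.5% identical in global alignments, against 35.9% to 49.2% for the other 25 pairs among the 8 chemokine genes with a promoter in the table.

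CXCL8, the gene of interleukin-8, gave 5.91 in HOTAIR vector, 6.52 in HOTAIR siRNA and 6.21 in control cells on its brightest probe set. Vector minus control was -0.31 and siRNA minus control 0.30, both within the spread between probe sets. Vector minus siRNA was -0.61, short of 2-fold. The 2 other CXCL8 probe sets lay between 3.10 and 3.60 on all arrays, and one of them turned the order, with vector minus siRNA at 0.45. The 300-base promoter of CXCL8 held 0 matches to the interferon core and, on the strand of the gene, 0 to the NF-kB consensus given for CXCL14. That pattern misses a site on the other strand or one that departs from it by a single base.

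**Figure D3:**
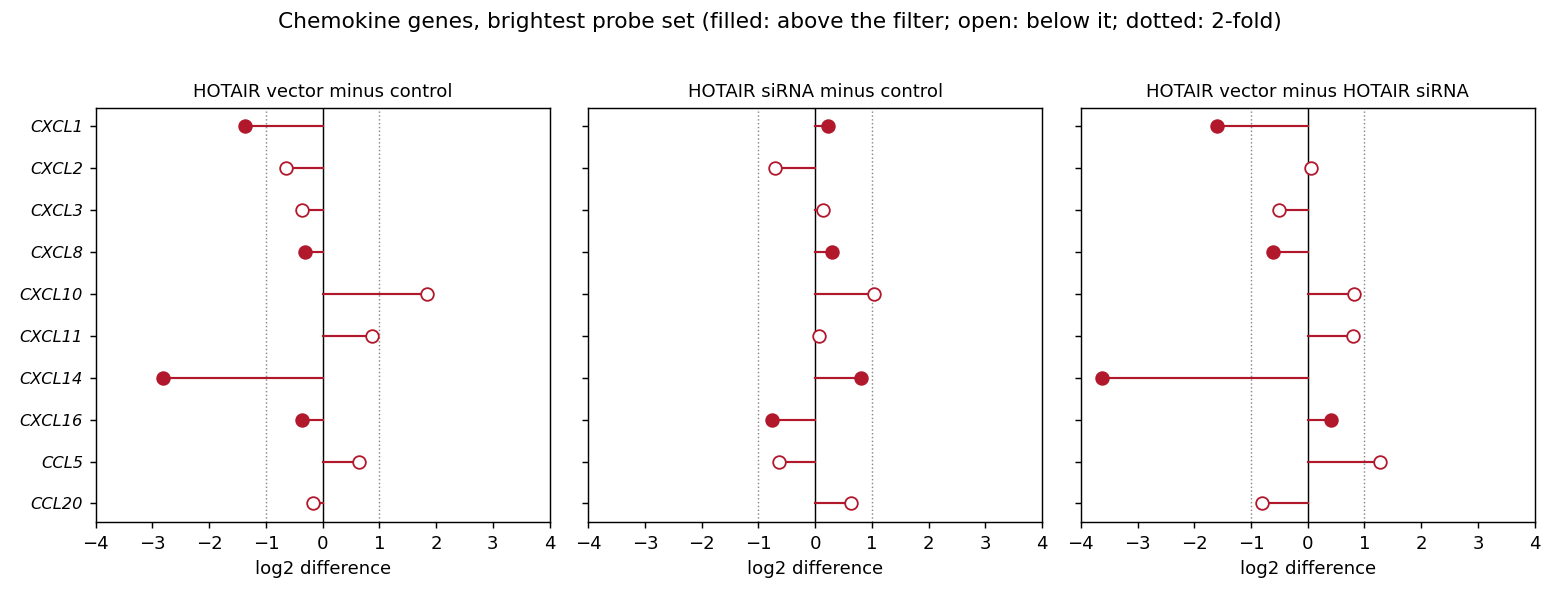
Log2 difference (horizontal axes) of the brightest probe set of each chemokine gene (rows) for HOTAIR vector minus control, HOTAIR siRNA minus control and HOTAIR vector minus HOTAIR siRNA, with filled points for genes that passed the filter, open points for the others and dotted lines at 2-fold. CXCL14 at -2.81 and CXCL1 at -1.37 lie left of the dotted line for vector minus control, and CXCL10 at 1.84 lies right of it.

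CXCL10, CXCL11 and CCL5, which attract T cells, were higher in HOTAIR vector than in control cells on dim signals. CXCL10 has 1 probe set, at 5.08 in HOTAIR vector, 4.27 in HOTAIR siRNA and 3.24 in control cells. Its HOTAIR vector signal lay near the median of that array, at percentile 48.0, and its control signal below the lower quartile, at percentile 15.7. Vector minus control was 1.84 (3.59-fold), siRNA minus control 1.03 (2.05-fold) and vector minus siRNA 0.81. CXCL10 thus lay above control in both arms, with HOTAIR vector the higher.

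CXCL11 was at or below the lower quartile everywhere, at 3.36 in HOTAIR vector, 2.56 in HOTAIR siRNA and 2.49 in control cells. Its other probe sets gave vector minus control differences of 0.14 and 0.42, beside 0.87 on the brightest. All 3 put HOTAIR vector highest, and no size is read from signals this low. CCL5 gave 5.34 in HOTAIR vector, 4.06 in HOTAIR siRNA and 4.69 in control cells. Control lay between the arms on all 3 CCL5 probe sets, with vector minus siRNA at 1.28, 1.84 and 0.57. On the probe set with the 1.84 difference the signals were 5.48 in HOTAIR vector, 3.64 in HOTAIR siRNA and 4.43 in control cells, with vector minus control at 1.05 and siRNA minus control at -0.79.

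The CXCL10 and CXCL11 promoters are shown because these neighbours on chromosome 4 are the interferon-induced chemokines of the set. The CXCL10 stretch covers 230 to 101 bases before the start, at chr4:76023598-76023727, and the CXCL11 stretch covers the last 100 bases before it, at chr4:76036071-76036170, both on the minus strand of GRCh38.p14 (RefSeq). In CXCL10 the first capitals mark the interferon core and the next runs the NF-kB consensus, which is also what the capitals mark in CXCL11.
CXCL10: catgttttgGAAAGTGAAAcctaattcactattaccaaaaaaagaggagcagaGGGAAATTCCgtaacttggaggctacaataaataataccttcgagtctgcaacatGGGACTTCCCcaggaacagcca
CXCL11: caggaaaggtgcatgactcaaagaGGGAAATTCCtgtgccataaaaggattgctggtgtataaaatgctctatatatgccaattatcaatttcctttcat
CXCL10 was the only 1 of 8 chemokine promoters with the interferon core, which begins 221 bases before the start on the strand of the gene. Of the 8, 5 hold the NF-kB consensus on the strand of the gene, the only one searched for it, namely CXCL1, CXCL2, CXCL3, CXCL10 and CXCL11. In HOTAIR vector cells the first 3 lay below control, as did 66.9% of all 18132 genes, and the last 2 above it. Of the 5, CXCL1 and CXCL10 alone were 2-fold apart from control, and all but CXCL1 were below the filter. Any part of the motif in these directions was not tested. CXCL16 and CCL5 had no entry in the promoter table.

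CXCL16 is made as a membrane protein that also serves as a scavenger receptor and is shed by ADAM10. It gave 7.97 in HOTAIR vector, 7.56 in HOTAIR siRNA and 8.33 in control cells. Both arms were below control, HOTAIR vector at -0.36 and HOTAIR siRNA at -0.77. HOTAIR siRNA was thus the lowest array, where for CXCL14 and CXCL1 it was the highest. On the second probe set the differences were -0.30 and -0.31, with the arms 0.01 apart, and neither reached 2-fold. CCL20, which draws dendritic cells and T cells through CCR6, has 1 probe set, at 4.10 in HOTAIR vector, 4.90 in HOTAIR siRNA and 4.27 in control cells. HOTAIR siRNA was thus the highest array for CCL20, with siRNA minus control at 0.63 and vector minus siRNA at -0.80, short of 2-fold. Across the 10 genes HOTAIR vector was the lowest array for 5 (CXCL1, CXCL3, CXCL8, CXCL14 and CCL20) and the highest for 3. The share of all genes with that order was not counted. Of all 18132 genes, 66.9% lay below control and 52.1% below HOTAIR siRNA in HOTAIR vector cells.

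Among 30 other chemokine genes measured, 5 passed the filter and 1 was 2-fold apart in a comparison. This was CCL26, the gene of eotaxin-3, at 5.70 in HOTAIR vector, 6.29 in HOTAIR siRNA and 7.04 in control cells. Its vector minus control was -1.34, and 2.05% of all genes that passed the filter were at least 2-fold lower in that comparison. CCL22, CCL25, CCL17 and CX3CL1 were less than 2-fold apart. CXCL9, the third ligand of CXCR3, was at 3.32 in HOTAIR vector, 3.57 in HOTAIR siRNA and 3.48 in control cells. Each signal lay below the lower quartile of its array, so its order is not compared with that of CXCL10.

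Of 21 receptor genes measured, 4 passed the filter and ACKR3 alone was 2-fold apart. ACKR3 encodes an atypical receptor that takes up CXCL11 and CXCL12. Its signals were 9.004 in HOTAIR vector, 10.05 in HOTAIR siRNA and 10.18 in control cells. Vector minus control was -1.17 and vector minus siRNA -1.04, and over its 4 probe sets vector minus control ran from -1.29 to -1.10. Of all genes that passed the filter, 2.05% were at least 2-fold lower in the first comparison and 1.85% in the second. After centring on the median of all genes vector minus control was -0.99. The receptor of the neutrophil chemokines, CXCR2, was at 2.78 in HOTAIR vector, 2.64 in HOTAIR siRNA and 2.93 in control cells. Signal for CXCR2 was thus below the lower quartile on every array. Genes of 3 proteases that act on chemokines were measured. ADAM10 was above control by 0.79 in HOTAIR vector and 0.81 in HOTAIR siRNA cells, and ADAM17 by 0.38 and 0.62. DPP4, which was below the filter, lay below control, at -0.51 in HOTAIR vector and -0.26 in HOTAIR siRNA cells.

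NF-kB genes differed from control in both directions. The filter kept 12 genes of subunits, kinases and inhibitors. In HOTAIR vector against control cells 3 of them were past 2-fold upwards (where 15.2% of all genes were) and 1 downwards (where 2.05% were). The same 3 were higher in HOTAIR siRNA cells (where 14.9% were). These comparisons share the control array. The median of the 12 was -0.09 for vector minus control, beside -0.18 for all genes. The subunit gene REL was at 6.55 in HOTAIR vector, 6.06 in HOTAIR siRNA and 4.32 in control cells. CHUK, which encodes the kinase IKK-alpha, was above control by 2.10 in HOTAIR vector and 1.87 in HOTAIR siRNA cells. NFKBIZ, an inducible nuclear regulator, was above it by 1.38 and 1.27. RELB, a subunit of the non-canonical pathway, was at -1.08 for vector minus control, or -0.78 after cyclic loess. Between HOTAIR vector and HOTAIR siRNA cells 0 of the 12 were 2-fold apart, where 1.73% of all genes were higher and 1.85% lower. Of 12 NF-kB-linked cytokines and targets measured, 3 passed the filter and none of the 3 was 2-fold apart. For HOTAIR vector against control 15.2% of all genes were higher and 2.05% lower. Below the filter IL1A, the gene of interleukin-1 alpha, was at 6.04 in HOTAIR vector, 5.22 in HOTAIR siRNA and 4.37 in control cells.

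Interferon signalling genes act upstream of CXCL10 and CXCL11. Of 11 that passed the filter, IRF9 and IFNGR1 were at least 2-fold higher in HOTAIR vector than in control cells (15.2% of all genes). None of the 11 was at least 2-fold lower (2.05% of all genes). The median of the 11 was -0.31, beside -0.18 for all genes. Between the arms IRF9 and IRF1 were at least 2-fold higher in HOTAIR vector cells, where 1.73% of all genes were. IRF9, the DNA-binding part of the ISGF3 complex, was at 10.56 in HOTAIR vector, 8.38 in HOTAIR siRNA and 8.85 in control cells. Its 4 probe sets gave vector minus control values from 1.59 to 1.86. IFNGR1, a subunit of the interferon gamma receptor, was above control by 1.03 in HOTAIR vector cells, or by 0.90 after repeated quantile normalization, and by 0.80 in HOTAIR siRNA cells. The arms were 0.23 apart for IFNGR1. IRF1, which can act on the promoters of interferon-induced genes, was at 6.45 in HOTAIR vector, 5.17 in HOTAIR siRNA and 6.02 in control cells. For IRF1 vector minus siRNA was 1.28, or 0.74 with the mean over its probe sets, and control lay between the arms as for CCL5. The interferon genes themselves were dim, IFNB1 at 3.27 in HOTAIR vector, 3.21 in HOTAIR siRNA and 3.35 in control cells.

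**Figure D4:**
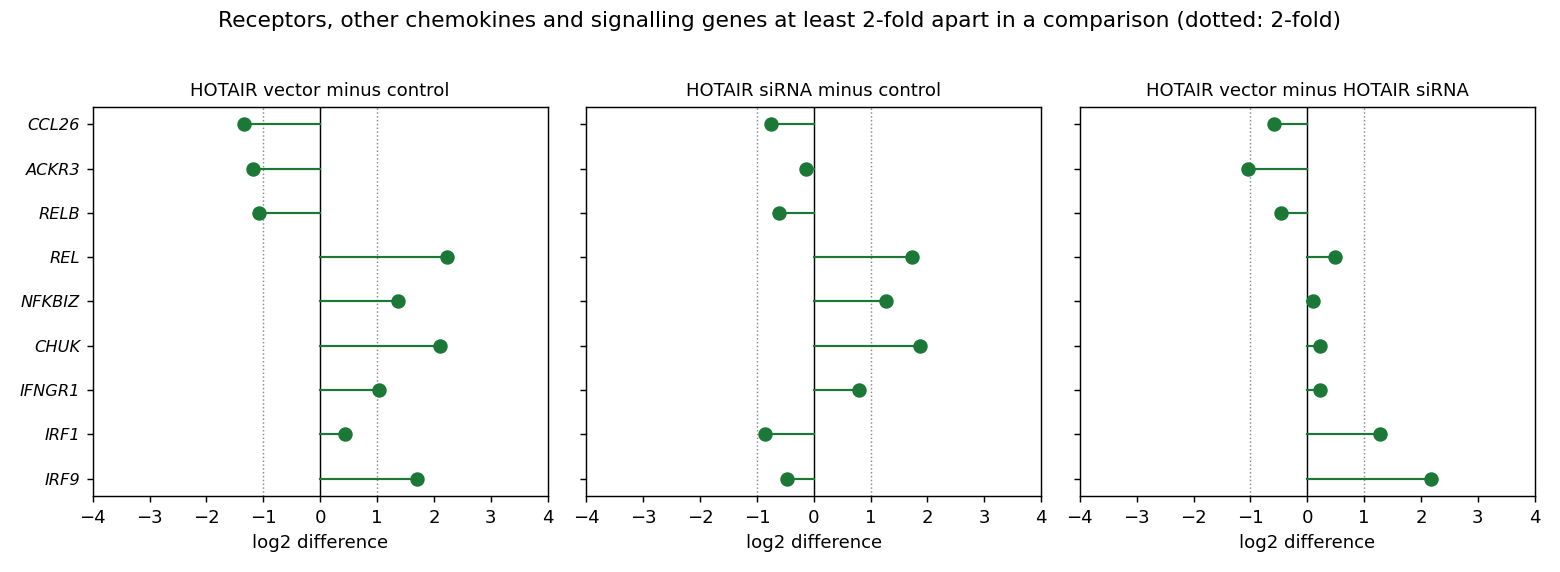
Log2 difference (horizontal axes) of the brightest probe set of the 9 receptor, chemokine and signalling genes (rows) that passed the filter and were at least 2-fold apart in a comparison, for HOTAIR vector minus control, HOTAIR siRNA minus control and HOTAIR vector minus HOTAIR siRNA, with dotted lines at 2-fold. REL, NFKBIZ and CHUK lie to the right in both comparisons with control, and IRF9, IRF1 and ACKR3 pass 2-fold between the arms, at 2.18, 1.28 and -1.04.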

How the data were processed

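Biotin-labelled RNA of each group was hybridised to 1 array, per the labels' protocols. The values the authors deposited are log2 signals per probe set, which come from RMA according to the submitters' processing notes. The log2 scale was read from the values (1.83 to 14.2), and the chip definition and RMA version were not given in the sources used here. Differences near background are compressed by RMA, which understates the fold of a dim gene.

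The file holds 49293 probe sets, of which the platform's annotation gives 1 symbol to 44988, several to 1832, and does not list 2473, so genes it does not list were not analysed here. All 10 chemokine symbols matched RefSeq by Entrez identifier. Genes were represented by their brightest probe set, and 10917 of 18132 passed the filter of 5.28. The members, lists and rules were chosen with earlier results of these data known. Named genes were the members, list genes past 2-fold, and the 5 genes nearest to CXCL14 by Euclidean distance. Genes named outside this rule (CXCL9, CCL17, CCL22, CCL25, CX3CL1, XCL1, CXCR2, IL1A, LCN2, IFNB1, PTPRC, ADAM10, ADAM17, DPP4 and chromosomal neighbours) were chosen after their values were seen. Motifs were searched in RefSeq promoters of GRCh38.p14. Protein sequences were not analysed here. The counting steps were tested on simulated data. Alternatives were other fold thresholds and filters, the mean over probe sets, probe sets ending in _x_at or _s_at left out, centring, repeated quantile normalization and cyclic loess (span 0.4, 3 cycles). Tools were Python 3.11.15 with numpy 2.4.6, pandas 2.3.3 and biopython 1.88, and R 4.3.3 with limma 3.58.1.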

Additional observations from a re-analysis of the deposited data

How the results depend on the processing

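No paired analysis was possible because each group has 1 array. The number of chemokine genes at least 2-fold apart between HOTAIR vector and control cells was 2, and it was 1 without probe sets ending in _x_at or _s_at (CXCL1 missed 2-fold), 1 with the filter at the 75th percentile (CXCL14 dropped out) and 1 at a 3-fold threshold. Between HOTAIR vector and HOTAIR siRNA cells it was also 2, and 1 under the first and the second of these settings. Between HOTAIR siRNA and control cells it was 0, against 1 after cyclic loess (CXCL14, at 1.11), 1 with no filter (CXCL10) and 2 at 1.5-fold. The related lists held 8 such genes for HOTAIR vector against control, against 4 with the filter at the 75th percentile, 16 at 1.5-fold and 3 at 3-fold. For HOTAIR siRNA against control they held 3, against 5 after cyclic loess, 1 with that filter and 13 at 1.5-fold. For HOTAIR vector against HOTAIR siRNA they held 3, and 1 at 3-fold. Over 5 alternatives CXCL14 ran from -2.83 to -1.51 for vector minus control and from -3.64 to -1.88 for vector minus siRNA, and CXCL1 from -1.55 to -0.75 and from -1.66 to -0.53. CXCL10 stayed between 1.84 and 2.08 for vector minus control. Of 150 member values, 134 moved by less than the spread between probe sets and 16 by more, and 0 that were 2-fold apart changed sign. The 134 include values that could not move, as CXCL10 and CCL20 have 1 probe set each. Leaving out the endings _x_at and _s_at also kept the brightest probe set of CXCL2, CXCL3, CXCL14 and CXCL16. Centring shifts every gene alike, by less than that spread. Signs of small differences did turn, for CXCL1, CXCL8 and CXCL11 in siRNA minus control, CXCL2 in vector minus siRNA and CCL20 in vector minus control. The cause of these shifts was not tested. Dim signals and single arrays limit CXCL2, CXCL3, CXCL10, CXCL11, CCL5 and CCL20 most.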

Other observations

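Genes beside the chemokines on the chromosome were taken as the nearest 2 measured protein-coding genes on each side in RefSeq order, and those named were chosen after seeing the data. CXCL14 sits between NEUROG1 and SLC25A48, which were below the filter, with NEUROG1 at 2.80 in HOTAIR vector, 2.70 in HOTAIR siRNA and 2.84 in control cells and SLC25A48 at 4.11, 4.49 and 4.73 in the same order. Around CXCL1, the neighbours PF4V1 and PF4 were at -0.62 and -0.23 for vector minus control and at -0.70 and -0.31 for siRNA minus control. Beyond CXCL11, the nuclear pore gene NUP54 was above control by 0.92 and 0.95 and the lysosomal membrane gene SCARB2 by 1.17 and 1.15, in HOTAIR vector and HOTAIR siRNA cells. MTHFD2L, next to CXCL2, encodes a mitochondrial folate enzyme and gave 5.69 in HOTAIR vector, 5.30 in HOTAIR siRNA and 3.71 in control cells. It was below the filter, with its control signal at the lower quartile of that array.

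The marker lists held a few 2-fold differences of their own. The basal keratin gene KRT14 was at 12.2 in HOTAIR vector, 13.0 in HOTAIR siRNA and 13.4 in control cells, with vector minus control at -1.16 (-0.98 after centring). The lysosomal gene CD68, also used as a macrophage marker, was at 6.60 in HOTAIR vector, 6.04 in HOTAIR siRNA and 7.49 in control cells. Its siRNA minus control was -1.46, but -0.59 on its other probe set and -1.02 with the mean over both. Every probe set of KRT14 and CD68 ends in _x_at, so neither gene has a value without that ending. The part of either in the chemokine values was not tested.

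XCL1, a chemokine of lymphocytes that was below the filter, was at 3.91 in HOTAIR vector, 4.82 in HOTAIR siRNA and 3.83 in control cells. LCN2, an NF-kB-linked secreted protein gene below the filter, was at 5.71 in HOTAIR vector, 4.36 in HOTAIR siRNA and 4.69 in control cells, so control lay between the arms as for CCL5.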
